A study of Rattus norvegicus with 12 samples.

Results

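The genes that make glutathione and the enzymes that remove superoxide and peroxides were followed in the dorsal striatum of rats with a lesion of the dopamine neurons. They were chosen by name alone: gene names starting with Gsta, Gstm, Gsto, Gstp, Gstt, Mgst, Gpx, Prdx or Txn, together with Sod1, Sod2, Sod3, Cat, Gclc, Gclm, Gsr, Gss, Nqo1, Hmox1 and Hmox2. Of the 35561 gene names on the array, 60 met this rule, on 80 of its 41012 probes. The brightest probe stood for each gene, and 50 of the 60 were bright enough to be tested.

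Glutathione is a tripeptide that cells keep at high concentration and use, directly or through enzymes, to reduce peroxides and to tag electrophilic compounds for export. It is made in a pair of ATP-dependent steps, by glutamate-cysteine ligase and then by glutathione synthetase, and is regenerated from its oxidised form by glutathione reductase. The thioredoxins and peroxiredoxins form a parallel thiol system, and many of these genes are known targets of the transcription factor NRF2, which binds antioxidant response elements. In the nigrostriatal system they are of interest because oxidation of dopamine and of 6-hydroxydopamine (6-OHDA) yields peroxides and quinones.

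All 12 male rats carried a unilateral lesion made by 9 µg of 6-OHDA in 4.5 µL injected into the left substantia nigra pars compacta, and formed 4 groups of 3 rats with 1 array per rat. The 6-OHDA group had the lesion alone. The HFS group was implanted with an electrode in the subthalamic nucleus on the side of the lesion and stimulated without pause for 5 days (130 Hz, 80 µs, 60 µA). The DOPA group received L-DOPA at 25 mg/kg with benserazide at 12.5 mg/kg, which blocks its conversion outside the brain, in 2 daily injections 12 h apart for 19 days, and DOPA/HFS rats were given L-DOPA in the same way and stimulated during its last 5 days. The last injection of L-DOPA came 12 h before killing. No array came from an unlesioned rat, so the levels before the lesion were not measured, and implantation of the electrode and stimulation cannot be told apart. No injections are recorded for the 6-OHDA and HFS groups, so L-DOPA, benserazide and repeated injection cannot be told apart either.

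RNA came from pooled punches of the dorsal striatum, and all 10 listed genes of striatal projection neurons were measured, with 9 or 10 of them well above background on every array. In such bulk tissue, fewer cells of a type and less RNA per cell cannot be told apart. Between 50.5% and 63.2% of the spots on an array were well above background. The share was 60.3% to 63.2% in HFS and 60% to 62.8% in DOPA/HFS, against 53.8% to 58.9% in 6-OHDA and 50.5% to 58% in DOPA. Every stimulated array was above every unstimulated array, and the cause was not tested. DOPA/HFS replicate 3 stood apart with 4175 spots that the scanner software marked as non-uniform, against 2 to 25 on the other arrays, and those spots were dropped. For Gpx7, Gstm3, Mgst1, Prdx6, Txnl1 and Txnrd2 the DOPA/HFS group therefore had 2 arrays. The arrays lay on 3 slides, each with 1 array of every group, and each group always took the same position on the slide, so position and group cannot be told apart.

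A feature that the naming rule did not use is the sequence before the genes. Of the 60 genes, 47 had a promoter in the RefSeq table for GRCr8, with 52 promoters in all, each taken from 250 bases before to 50 after the start. The core of the antioxidant response element, TGACNNNGC on either strand, occurred in 15 of these 52 promoters (28.8%), in 12.1% of the 33469 promoters of all genes and in 12.5% of the 21851 of protein-coding genes. Counted by gene, it was 15 of 47 members (31.9%) and 13.1% of all genes. Hmox2 and Txnrd1 each had another promoter without it. It can overlap the AP-1 site, TGACTCA or TGAGTCA, which was found in 4 of the 52 promoters (7.69%) and in 4.63% of all promoters. The windows below lie upstream of the start and are shown for the genes whose values are described next, in the direction of the gene and with the element, or its reverse complement, in capitals.
Gstm5, chr2:198219636-198219684, plus strand: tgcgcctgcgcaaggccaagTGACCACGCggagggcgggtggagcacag
Gstm5, chr2:198219696-198219744, plus strand: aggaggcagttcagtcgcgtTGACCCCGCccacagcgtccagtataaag
Gstp1, chr1:210769738-210769786, minus strand: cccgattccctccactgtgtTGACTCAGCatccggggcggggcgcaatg
Prdx1, chr5:135383751-135383799, plus strand: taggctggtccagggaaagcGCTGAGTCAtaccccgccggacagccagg
Sod2, chr1:50050175-50050223, minus strand: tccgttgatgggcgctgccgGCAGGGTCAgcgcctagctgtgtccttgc
Txnrd1, chr7:22755954-22756002, minus strand: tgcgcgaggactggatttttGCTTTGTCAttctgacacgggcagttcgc
Hmox2, chr10:11337679-11337727, minus strand: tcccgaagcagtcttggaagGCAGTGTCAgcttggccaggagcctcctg
Gclm, chr2:213031943-213031991, plus strand: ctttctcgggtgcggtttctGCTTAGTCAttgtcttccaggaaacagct
In Gstp1 and Prdx1 the element overlapped an AP-1 site, and Gstm5 held 2 copies. The Gss promoter held no match. A match is a run of letters and does not show that a factor binds there.

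No member was called different in any of the 3 treatments. A call needed a Benjamini-Hochberg adjusted p under 0.1 in limma together with a fold over 1.2 or under 0.8. In HFS against 6-OHDA, 0 of 50 members were called, as were 0 of all 20375 genes tested (0%). In DOPA against 6-OHDA it was 0 of 50 members and 1 of all genes (0.00491%), and in DOPA/HFS against 6-OHDA 0 of 50 and 0 of all (0%). At an unadjusted p under 0.05, limma picked 1 member for HFS (Gstm5), 2 for DOPA (Gss and Gpx3) and 0 for DOPA/HFS. Over all genes the shares at that level were 2.35%, 2.6% and 2.76%, so the members' 2%, 4% and 0% were near the background.

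As a group the members lay close to their 6-OHDA level. On the log2 scale the median difference was 0.05 in HFS (31 of 50 above 0, against 51.5% of all genes), -0.03 in DOPA (23 of 50, against 47.7%) and 0.03 in DOPA/HFS (27 of 50, against 47.6%). The median over all genes was 0.01, -0.01 and -0.01. Arrays of HFS and 6-OHDA did not overlap in 6 members (12%, against 5.15% of all genes), 3 higher (against 2.8%) and 3 lower (against 2.35%). The same was seen in 6 members for DOPA (12%, against 6.29%), 3 higher (3.17%) and 3 lower (3.12%), and in 4 for DOPA/HFS (8%, against 5.07%), 2 higher (2.05%) and 2 lower (3.03%), of which Prdx6 and Txnrd2 rest on 2 DOPA/HFS arrays. The 95% interval of the difference lay wholly inside a 2-fold change in either direction for 46 members (HFS), 43 (DOPA) and 42 (DOPA/HFS), and inside a 1.5-fold change for 32, 32 and 29. Within groups, the median SD of the members was 0.20 on the log2 scale, against 0.27 for all genes.

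**Figure D1:**
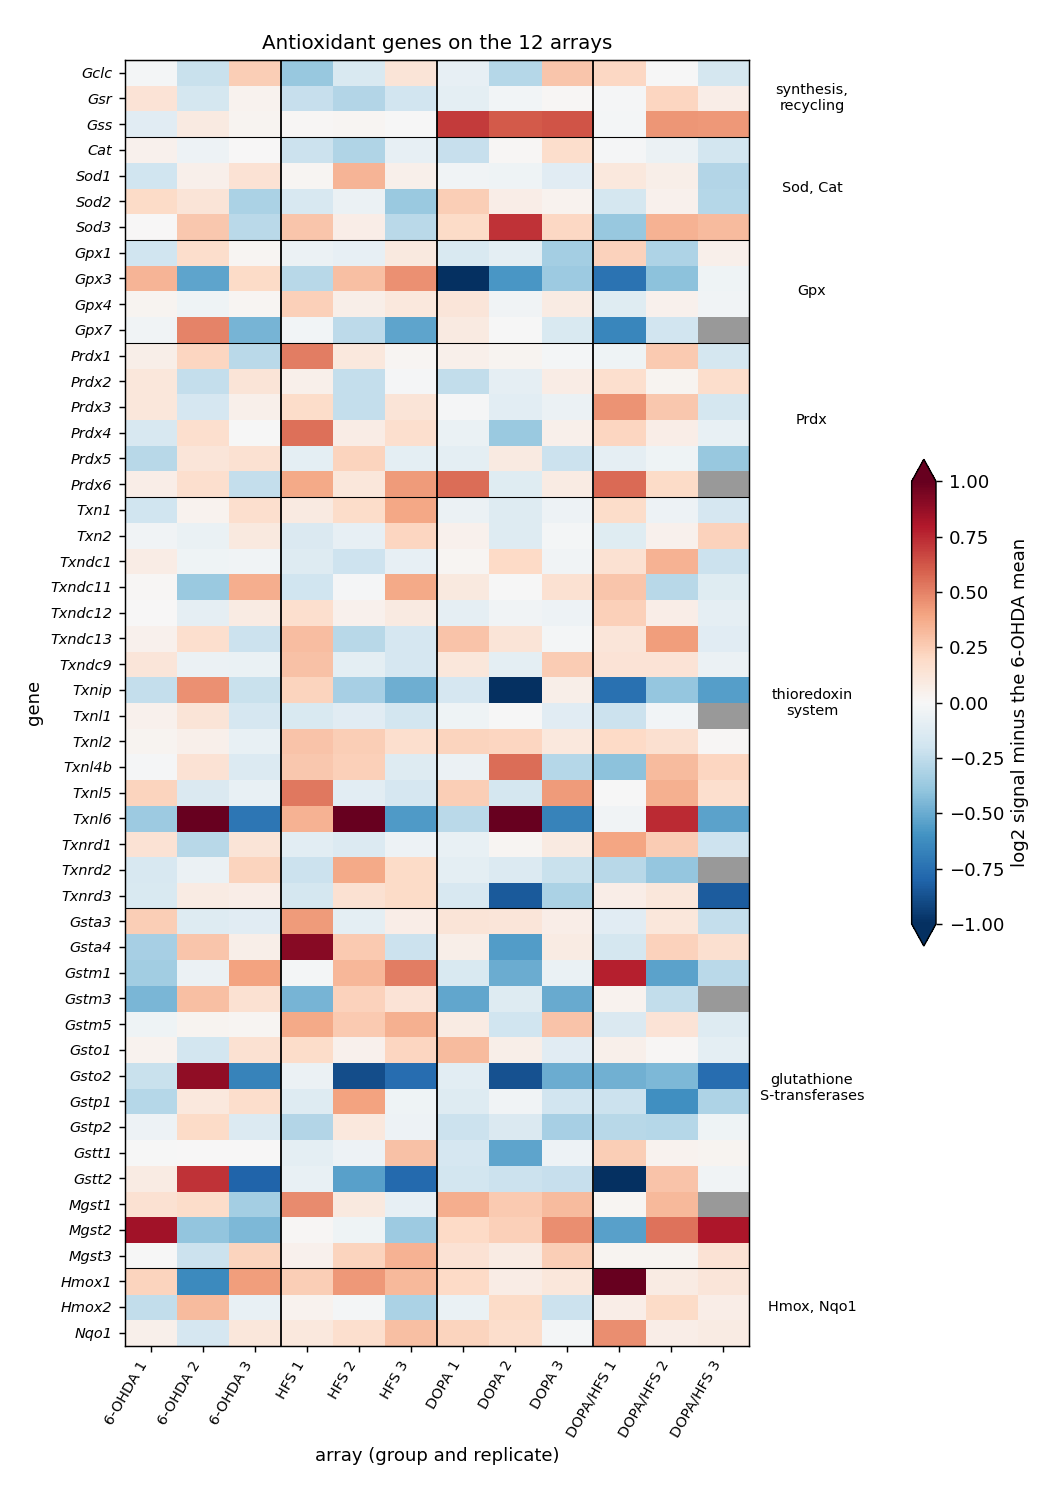
Log2 signal of the 50 tested genes (rows, by role) on the 12 arrays (columns), as the difference from the mean of the 6-OHDA group; the colours end at 1 and -1, and grey marks arrays where the spot was dropped. Gss stands out in the 3 DOPA arrays, and Txnl6 follows the replicate number across all groups.

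**Figure D2:**
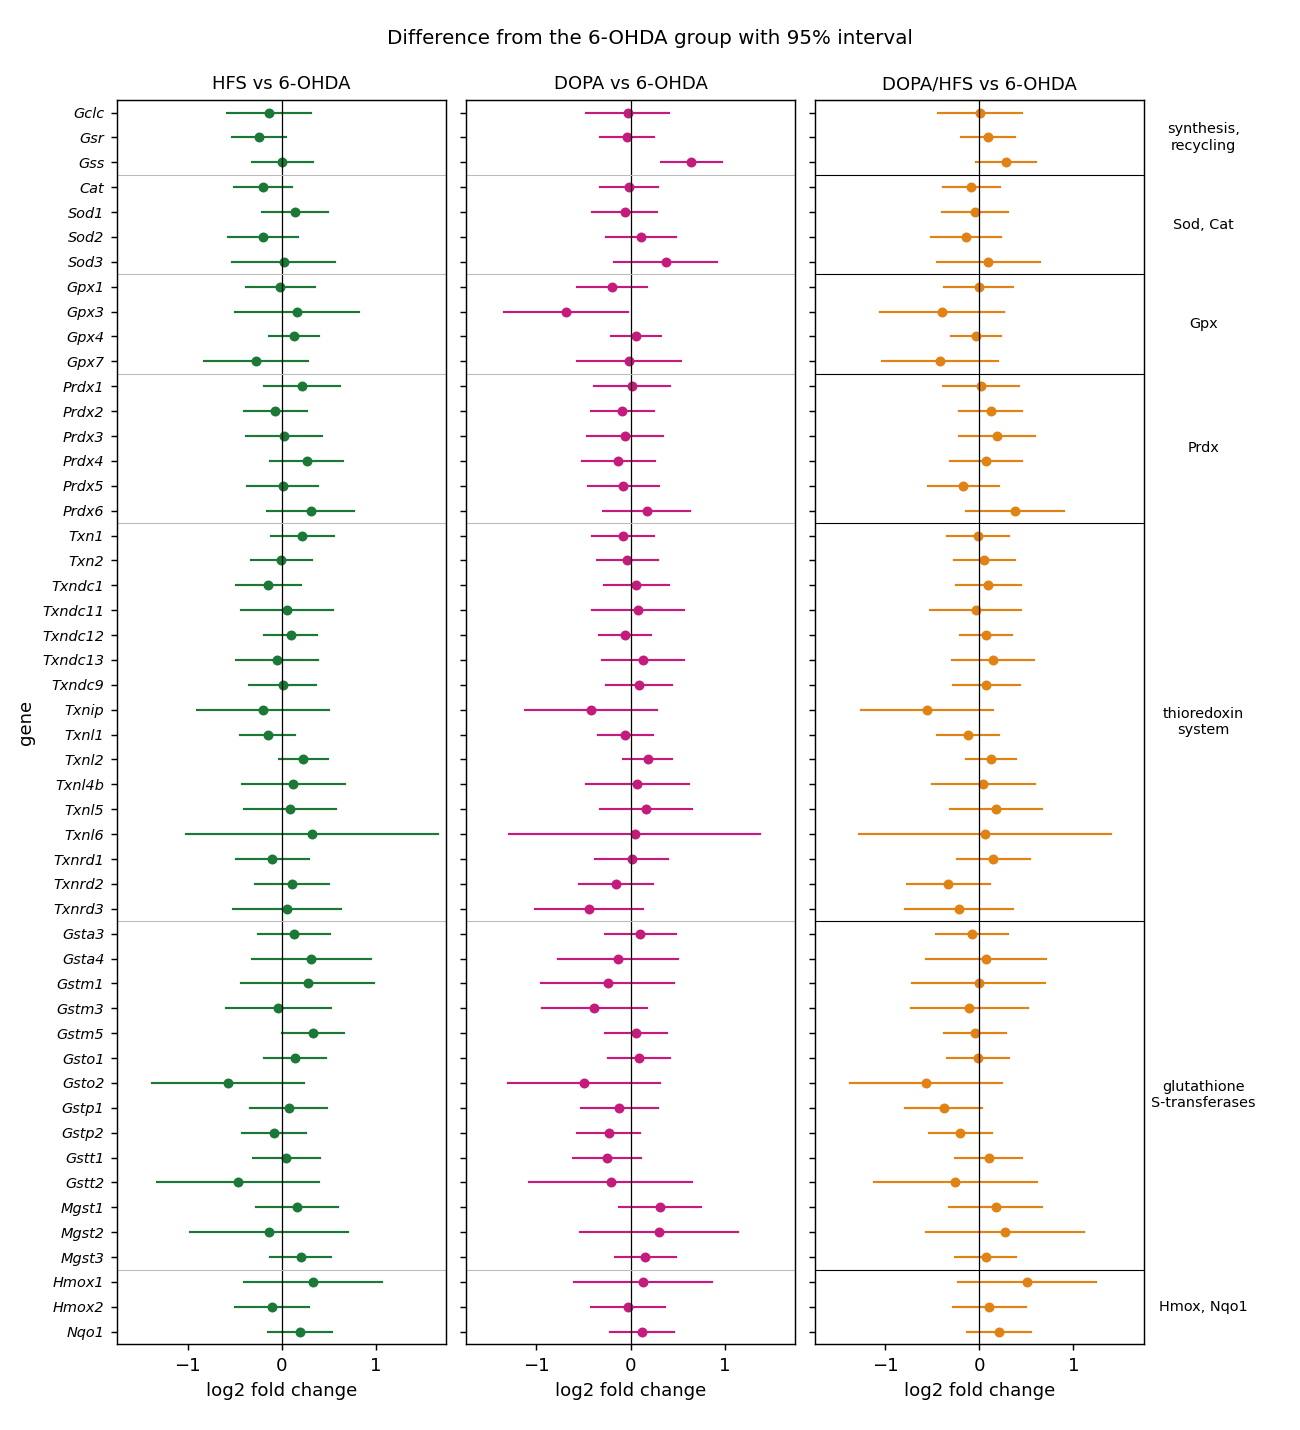
Log2 fold change against 6-OHDA of each tested gene, by role, in HFS, DOPA and DOPA/HFS, with lines for the 95% interval from the limma fit. The intervals of Gss and Gpx3 in DOPA and of Gstm5 in HFS leave out 0 before adjustment for the 20375 genes tested.

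In the combined comparisons, both L-DOPA groups against both without, both stimulated groups against both without, and the interaction, 0 of the 50 members were called, against 0.00491%, 0% and 0% of all genes in limma. At an unadjusted p under 0.05 there were 3 members for L-DOPA (Gss, Gpx3 and Txnrd2, against 2.74% of all genes), 0 for stimulation (4.36%) and 0 for the interaction (1.98%). An F test over the 4 groups called 0 members (0.00491% of all genes), and gave 1 at an unadjusted p under 0.05 (Gss, against 2.82%). Above 0 lay 22 of 50 members for L-DOPA (45.4% of all genes), 29 for stimulation (50.6%) and 23 for the interaction (48.5%).

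Among the genes of glutathione synthesis and recycling, Gss stood highest above 6-OHDA after L-DOPA. Gss encodes glutathione synthetase, which adds glycine in the last step of synthesis. Its log2 signal was 9.37, 9.58 and 9.51 in 6-OHDA, 9.50, 9.51 and 9.48 in HFS, 10.19, 10.10 and 10.11 in DOPA, and 9.47, 9.93 and 9.92 in DOPA/HFS. The DOPA arrays lay above all other arrays, the HFS arrays lay within the range of 6-OHDA, and DOPA/HFS was split, with replicate 1 at the 6-OHDA level and the others between 6-OHDA and DOPA. The log2 difference was 0.65 (SE 0.15) in DOPA, or 1.57-fold, with a 95% interval of 0.32 to 0.97, and it was 0.28 (SE 0.15) in DOPA/HFS and 0.01 (SE 0.15) in HFS. In DOPA/HFS it was 0.096 with the deposited log2 table, 0.13 with the outlier spots kept and 0.43 without replicate 1. For DOPA, limma gave p = 0.00108 before and 0.966 after adjustment, and the exact two-sided permutation test gave 0.1, the smallest value that 3 arrays against 3 allow. Gss is in the study's own list for L-DOPA, drawn from these arrays, so its direction is not independent evidence.

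Taking both groups with L-DOPA against both without, the Gss difference was 0.46 (SE 0.10), with an adjusted p of 0.654 in limma and an exact permutation p of 0.013. Without DOPA/HFS replicate 1 it was 0.54 with an adjusted p of 0.0971, the only setting of those run in which a member was called. In that setting 28 of all 20375 genes were called, against 1 with all arrays. Whether stimulation acted differently on Gss with L-DOPA was tested by the interaction, which was -0.37 (SE 0.21) with a 95% interval of -0.83 to 0.09. Gss was also 1 of 5 members with the lowest p for stimulation itself, with a difference of -0.18 (SE 0.10). Without DOPA/HFS replicate 1 the interaction was -0.22 and the stimulation difference -0.10.

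The other genes of synthesis and recycling differed less. Gsr, the NADPH-dependent reductase that restores glutathione, had log2 signals of 9.26, 8.94 and 9.15 in 6-OHDA, 8.88, 8.82 and 8.92 in HFS, 9.02, 9.09 and 9.12 in DOPA, and 9.10, 9.33 and 9.19 in DOPA/HFS. Its HFS arrays were below every other array, with a difference of -0.24 (SE 0.13) against 6-OHDA with an unadjusted p of 0.0942 in limma, while DOPA/HFS overlapped with 6-OHDA. The interaction was 0.37 (SE 0.18) with an unadjusted limma p of 0.0712, and 0.072 with the deposited log2 table. Gclc, the catalytic subunit of glutamate-cysteine ligase and the limiting enzyme of synthesis, ranged from 7.37 to 8.03 over the 12 arrays, and differed from 6-OHDA by -0.13 (HFS), -0.03 (DOPA) and 0.01 (DOPA/HFS) (SE 0.20). On no array was the modifier subunit Gclm well above background.

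**Figure D3:**
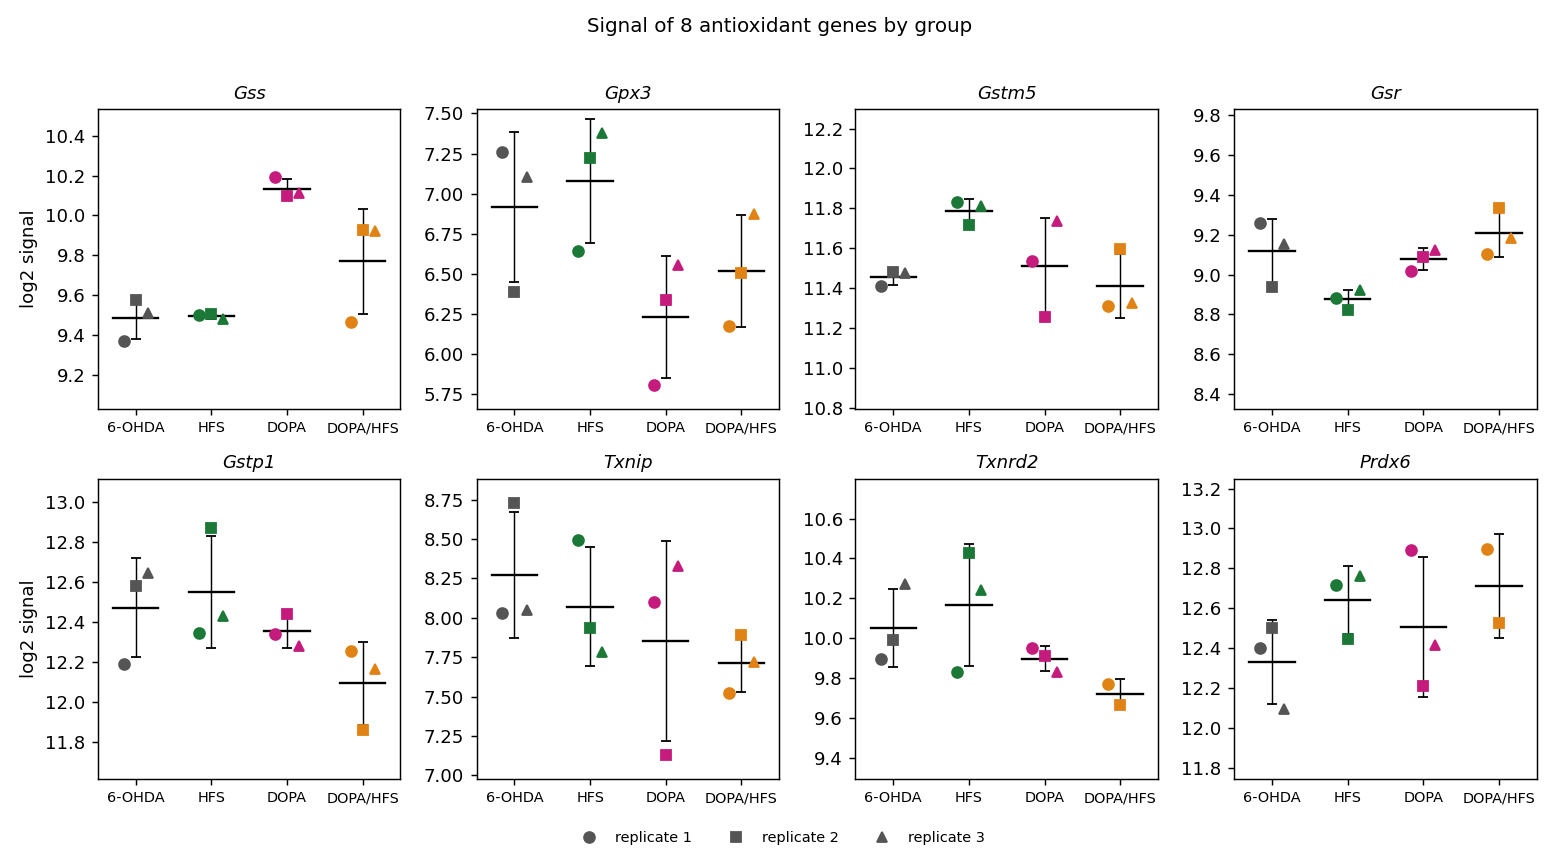
Log2 signal of 8 genes in the 4 groups; symbols are arrays by replicate number, bars the mean and lines 1 SD (n = 3, or 2 where a spot was dropped), and the axis range differs between genes. The 3 DOPA arrays of Gss, from 10.10 to 10.19, lie above all others, and the 3 HFS arrays of Gstm5, from 11.72 to 11.83, lie above all 6-OHDA arrays.

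Superoxide dismutases turn superoxide into hydrogen peroxide, in the cytosol (Sod1), mitochondria (Sod2) and outside the cell (Sod3), and catalase (Cat) splits hydrogen peroxide in peroxisomes. None of the 4 had an unadjusted p under 0.05. Cat was 9.04, 8.95 and 9.01 in 6-OHDA, 8.79, 8.70 and 8.92 in HFS, 8.77, 9.02 and 9.17 in DOPA, and 8.99, 8.94 and 8.81 in DOPA/HFS. The HFS arrays were all below the 6-OHDA arrays, a difference of -0.20 (SE 0.14), whereas DOPA and DOPA/HFS overlapped with 6-OHDA. Sod2 had the lowest p of all members for stimulation, with values of 8.81, 8.74 and 8.30 in 6-OHDA, 8.46, 8.55 and 8.25 in HFS, 8.86, 8.68 and 8.65 in DOPA, and 8.44, 8.66 and 8.33 in DOPA/HFS. The stimulated groups together differed from the unstimulated by -0.23 (SE 0.12) with an unadjusted limma p of 0.0865, and the groups overlapped. Sod1 ranged from 15.19 to 15.82 and Sod3 from 11.27 to 12.38. The largest difference of Sod3 was 0.37 (SE 0.25) in DOPA, where replicate 2 was the highest of the 12 arrays.

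Among the glutathione peroxidases, Gpx1 uses glutathione to reduce peroxides in the cytosol, Gpx4 reduces lipid hydroperoxides in membranes, and Gpx3 is a secreted form. Gpx7 belongs to the same family and lies in the endoplasmic reticulum. Gpx3 averaged lower in both L-DOPA groups, at 7.26, 6.39 and 7.10 in 6-OHDA, 6.64, 7.22 and 7.38 in HFS, 5.81, 6.33 and 6.55 in DOPA, and 6.18, 6.51 and 6.87 in DOPA/HFS. The difference was -0.68 (SE 0.30) in DOPA, or 0.622-fold, and -0.40 (SE 0.30) in DOPA/HFS, and the arrays overlapped with 6-OHDA, where replicate 2 was at 6.39. With normexp background correction the DOPA difference was -0.40, and with the deposited log2 table -0.41. Limma gave unadjusted p = 0.0422 for DOPA and 0.0132 for both L-DOPA groups against the others, where the difference was -0.62 (SE 0.21) (-0.37 with normexp), and neither passed after adjustment.

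The other 3 peroxidases tested had no unadjusted p under 0.05. Gpx7 was 8.80, 9.33 and 8.37 in 6-OHDA, 8.81, 8.57 and 8.30 in HFS, 8.92, 8.83 and 8.68 in DOPA, and 8.18 and 8.64 in DOPA/HFS. Stimulated arrays averaged -0.34 (SE 0.19) relative to unstimulated ones, the groups overlapped, and with the dropped spot kept the difference was -0.032. For Gpx4 the arrays were 14.10, 14.03 and 14.10 in 6-OHDA, 14.32, 14.14 and 14.18 in HFS, 14.20, 14.04 and 14.16 in DOPA, and 13.96, 14.12 and 14.04 in DOPA/HFS. Its HFS arrays were above all 6-OHDA arrays, but by 0.14 (SE 0.12). Gpx1 ranged from 13.54 to 14.11, with differences of -0.01, -0.19 and -0.01 in HFS, DOPA and DOPA/HFS (SE 0.17).

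Peroxiredoxins reduce peroxides with electrons from thioredoxin or, for Prdx6, glutathione, and none of the 6 passed an unadjusted p of 0.05. In HFS, 5 of 6 were above 6-OHDA, with a median of 0.12, against 2 of 6 in DOPA and 5 of 6 in DOPA/HFS. Prdx4, of the endoplasmic reticulum, was 9.60, 9.93 and 9.76 in 6-OHDA, 10.32, 9.84 and 9.94 in HFS, 9.70, 9.40 and 9.82 in DOPA, and 9.98, 9.83 and 9.69 in DOPA/HFS. HFS replicate 1 was the highest array, the groups overlapped, and the differences were 0.27 (SE 0.18) in HFS and 0.23 (SE 0.12) for both stimulated groups against the others. Without HFS replicate 1 the HFS difference was 0.12, and with the deposited log2 table that for stimulation was 0.10. Prdx6 was 12.40, 12.50 and 12.10 in 6-OHDA, 12.72, 12.45 and 12.76 in HFS, 12.89, 12.21 and 12.41 in DOPA, and 12.90 and 12.53 in DOPA/HFS, with DOPA/HFS resting on 2 arrays. The 2 arrays were above all 6-OHDA arrays, by 0.38 (SE 0.23), but DOPA replicate 1 lay at 12.89. The difference was 0.67 with the dropped spot kept and 0.20 without DOPA/HFS replicate 1.

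HFS replicate 1 was also the highest of the 12 arrays for cytosolic Prdx1 at 13.85, against 13.07 to 13.60 elsewhere. Prdx2, the abundant form of neurons, ranged from 14.48 to 14.90, mitochondrial Prdx3 from 12.02 to 12.71 and Prdx5 from 13.92 to 14.53. Their differences from 6-OHDA lay between -0.17 (Prdx5 in DOPA/HFS) and 0.18 (Prdx3 in DOPA/HFS).

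Choroid plexus genes moved with the HFS group, and their part in these values was not tested. Of 10 listed choroid plexus genes, 8 were measured on all 12 arrays, and their mean log2 signal was 9.55, 6.30 and 9.12 in HFS, against 4.42 to 4.67 in 6-OHDA, 4.14 to 7.79 in DOPA and 4.30 to 5.57 in DOPA/HFS. Between 8 and 10 of the 10 were well above background in HFS, and 4 or 5 in 6-OHDA. The log2 of the summed signal of the 8 was 12.1 to 16.4 in HFS and 8.13 to 8.67 in 6-OHDA. HFS replicate 1, which had the highest choroid plexus signal, was the highest array for Prdx1, Prdx4 and Gsta4. HFS replicate 3, with a choroid plexus mean of 9.12, was at 13.36, 9.94 and 10.23 for these genes. DOPA replicate 3, with a choroid plexus mean of 7.79, was at 13.32, 9.82 and 10.53. The 6-OHDA means were 13.34, 9.76 and 10.45. Gstm5 lay between 11.72 and 11.83 in the 3 HFS arrays. Across all 12 arrays the means of the other lists, over the genes measured on every array, ran from 6.89 to 8.97 for ependyma (highest in HFS replicate 1), 8.23 to 9.34 for leptomeninges, 8.00 to 8.41 for endothelium, 10.54 to 11.19 for microglia, 10.42 to 10.79 for astrocytes and 12.82 to 13.33 for oligodendrocytes.

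The 18 genes grouped here as the thioredoxin system are those with names starting with Txn, and 16 were tested. The grouping is by name only and takes in Txnl2, described below as a glutaredoxin. Thioredoxins (Txn1, and mitochondrial Txn2) reduce protein disulfides, the reductases Txnrd1 to Txnrd3 recharge them with NADPH, and Txnip binds and inhibits thioredoxin. HFS had 10 genes above the 6-OHDA mean (median 0.06), DOPA 9 (0.03) and DOPA/HFS 10 (0.06), and none had an unadjusted p under 0.05 in these 3 comparisons. Txn1 ranged from 13.00 to 13.59, Txn2 from 11.63 to 12.00 and Txnrd1 from 10.15 to 10.82. The largest difference among these 3 genes was 0.22 (SE 0.15), of Txn1 in HFS.

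Txnip was 8.03, 8.73 and 8.05 in 6-OHDA, 8.50, 7.94 and 7.78 in HFS, 8.10, 7.13 and 8.33 in DOPA, and 7.52, 7.89 and 7.72 in DOPA/HFS. Every DOPA/HFS array was below every 6-OHDA array, a difference of -0.56 (SE 0.32) with an unadjusted limma p of 0.106 and an interval of -1.26 to 0.14, but HFS replicate 3 and DOPA replicate 2 lay at 7.78 and 7.13, so the treated groups overlapped. Without 6-OHDA replicate 2 the DOPA/HFS difference was -0.33.

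Txnrd2, the mitochondrial reductase, was 9.89, 9.99 and 10.27 in 6-OHDA, 9.83, 10.43 and 10.24 in HFS, 9.95, 9.91 and 9.83 in DOPA, and 9.77 and 9.67 in DOPA/HFS, without DOPA/HFS replicate 3. The 2 DOPA/HFS arrays were the lowest of all, with a difference of -0.33 (SE 0.20) from 6-OHDA. For both L-DOPA groups against the others the difference was -0.30 (SE 0.13), with an unadjusted limma p of 0.0464. With the dropped spot kept, the DOPA/HFS difference turned to 0.51, so the direction rests on dropping it.

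Txnrd3, a reductase that also acts on glutathione, was 5.37, 5.60 and 5.59 in 6-OHDA, 5.35, 5.67 and 5.71 in HFS, 5.36, 4.68 and 5.20 in DOPA, and 5.58, 5.64 and 4.68 in DOPA/HFS. The DOPA arrays lay below the 6-OHDA arrays, with a difference of -0.44 (SE 0.26), but only 1 DOPA array and 2 DOPA/HFS arrays were well above background. That difference was -0.10 with normexp, -0.12 with the deposited log2 table and -0.24 without DOPA replicate 2. Txnl2, now named Glrx3, a glutaredoxin that handles iron-sulfur clusters, was 13.49, 13.51 and 13.39 in 6-OHDA, 13.75, 13.71 and 13.63 in HFS, 13.69, 13.68 and 13.57 in DOPA, and 13.66, 13.62 and 13.47 in DOPA/HFS. The HFS arrays and the DOPA arrays were all above the 6-OHDA arrays, by 0.23 (SE 0.12) and 0.18 (SE 0.12), in comparisons that share the 6-OHDA arrays. With 75th percentile scaling the HFS difference was 0.13. Its second probe gave 0.32 and 0.27, and the interaction was -0.29 (SE 0.17). Txndc1, now Tmx1, a membrane thioredoxin of the endoplasmic reticulum, was lower in HFS than in 6-OHDA without overlap, at a difference of -0.14 (SE 0.16).

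Glutathione S-transferases attach glutathione to electrophilic compounds, and 14 of 18 were tested. In HFS 9 of 14 were above 6-OHDA (median 0.10), in DOPA 6 (-0.13) and in DOPA/HFS 5 (-0.03). Gstm5, a mu-class enzyme that is expressed in brain, was 11.41, 11.48 and 11.47 in 6-OHDA, 11.83, 11.72 and 11.81 in HFS, 11.54, 11.26 and 11.74 in DOPA, and 11.31, 11.59 and 11.33 in DOPA/HFS. The HFS arrays lay above all arrays of 6-OHDA and DOPA/HFS and above 2 of the 3 in DOPA, with a difference of 0.33 (SE 0.15), or 1.26-fold. Limma gave p = 0.0484 before and 0.998 after adjustment, and the exact two-sided permutation p was 0.1. The unadjusted p passed 0.05 narrowly, and did not with 75th percentile scaling, the deposited log2 table, the outlier spots kept, the slide as a block, only the arrays compared, or 1 array left out, whether of 6-OHDA, of HFS, DOPA replicate 1 or DOPA/HFS replicates 1 or 3. The interaction was -0.43 (SE 0.21), at an unadjusted p of 0.0661.

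The Gstm5 result depended on the probe. A second Gstm5 probe, also well above background on all 12 arrays, gave differences of -0.55 (HFS), -0.54 (DOPA) and -0.58 (DOPA/HFS), and another, above background on 3 arrays, gave -0.49 in HFS. With the mean of the probes that passed the filter, the HFS difference was -0.11. Mu-class genes are close relatives, and which transcripts each probe binds was not tested. Gstm5 is in the study's own list for HFS, drawn from these arrays, so its direction is not independent evidence.

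Gstp1, a pi-class enzyme, had the lowest p of the members in DOPA/HFS. It was 12.19, 12.58 and 12.65 in 6-OHDA, 12.34, 12.87 and 12.43 in HFS, 12.34, 12.44 and 12.28 in DOPA, and 12.25, 11.86 and 12.16 in DOPA/HFS. DOPA/HFS replicate 2 was the lowest array and replicate 1 lay within the 6-OHDA range, and the difference was -0.38 (SE 0.19), or 0.769-fold, with an unadjusted limma p of 0.0661. Over both L-DOPA groups it was -0.29 (SE 0.13) with an unadjusted limma p of 0.0508 and an unadjusted exact permutation p of 0.0455.

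Gstt1, of the theta class, was 6.85, 6.86 and 6.86 in 6-OHDA, 6.76, 6.81 and 7.15 in HFS, 6.68, 6.33 and 6.80 in DOPA, and 7.10, 6.89 and 6.88 in DOPA/HFS. The 6-OHDA arrays lay between 6.85 and 6.86, and DOPA arrays lay below and DOPA/HFS arrays above without overlap, with differences of -0.25 (SE 0.16) and 0.10 (SE 0.16), and without DOPA replicate 2, the lowest, the DOPA difference was -0.11. Gsto2, of the omega class, was 6.04, 7.15 and 5.60 in 6-OHDA, 6.21, 5.38 and 5.51 in HFS, 6.16, 5.39 and 5.77 in DOPA, and 5.78, 5.81 and 5.50 in DOPA/HFS. The treated groups averaged -0.57, -0.49 and -0.56 relative to 6-OHDA (SE 0.37), which rested on the high 6-OHDA replicate 2: without it the HFS difference was -0.12. Gsto2 was not well above background on 2 of the 12 arrays.

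Mgst1, a membrane-bound transferase, was 9.19, 9.22 and 8.69 in 6-OHDA, 9.51, 9.13 and 8.95 in HFS, 9.40, 9.29 and 9.35 in DOPA, and 9.05 and 9.36 in DOPA/HFS. DOPA was above 6-OHDA without overlap, by 0.31 (SE 0.20), and without 6-OHDA replicate 3 the difference was 0.14. Mgst3, another membrane enzyme, was 13.94, 13.73 and 14.17 in 6-OHDA, 13.99, 14.17 and 14.29 in HFS, 14.09, 14.03 and 14.19 in DOPA, and 13.97, 13.98 and 14.09 in DOPA/HFS. The largest difference was 0.20 (SE 0.15) in HFS, and its second probe gave 0.12. Gstp2 was lower in DOPA than in 6-OHDA without overlap, at a difference of -0.23 (SE 0.15). Gsta4, which acts on lipid aldehydes, ranged from 9.89 to 11.36 with HFS replicate 1 on top, and Gsto1 ranged from 13.61 to 14.11. Gstm1 ranged from 11.49 to 12.80, with DOPA/HFS replicate 1 highest.

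Hmox1, the inducible haem oxygenase, and Nqo1, a quinone reductase, are common markers of an NRF2 response, and Hmox2 is the constitutive form. Hmox1 was 7.62, 6.76 and 7.82 in 6-OHDA, 7.65, 7.83 and 7.72 in HFS, 7.60, 7.47 and 7.51 in DOPA, and 8.72, 7.48 and 7.52 in DOPA/HFS, averaged over 10 spots of its probe. DOPA/HFS replicate 1 was more than 1 above the other arrays of its group, and 6-OHDA replicate 2 was the lowest. The differences were 0.33 (SE 0.33), 0.13 and 0.51 in HFS, DOPA and DOPA/HFS, with intervals as wide as -0.23 to 1.24 in DOPA/HFS. Nqo1 was 7.30, 7.08 and 7.36 in 6-OHDA, 7.35, 7.42 and 7.55 in HFS, 7.47, 7.42 and 7.23 in DOPA, and 7.71, 7.31 and 7.33 in DOPA/HFS. The groups overlapped, with differences of 0.19, 0.12 and 0.21 (SE 0.15). Hmox2 ranged from 13.70 to 14.33.

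DOPA/HFS replicate 1 departed from the other arrays of its group by more than 1 in 4 members, the most for any array. It was higher in Hmox1 and Gstm1, and lower in Mgst2 and Gstt2. Mgst2 was 8.06, 6.83 and 6.78 in 6-OHDA, 7.23, 7.18 and 6.86 in HFS, 7.42, 7.46 and 7.69 in DOPA, and 6.68, 7.77 and 8.04 in DOPA/HFS. Replicate 1 was the highest 6-OHDA array and the lowest DOPA/HFS array.

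The largest spread within groups belonged to Txnl6, with an SD of 0.86. Its values were 5.77, 7.22 and 5.41 in 6-OHDA, 6.48, 7.33 and 5.57 in HFS, 5.87, 7.20 and 5.46 in DOPA, and 6.10, 6.88 and 5.60 in DOPA/HFS. Replicate 2, the arrays of 1 slide, lay from 6.88 to 7.33 in all 4 groups, replicate 1 from 5.77 to 6.48 and replicate 3 from 5.41 to 5.60, so the slides did not overlap. Of the 50 members it was the only one in which a slide lay apart from the others (2%), against 841 of all 20375 genes (4.13%).

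**Figure D4:**
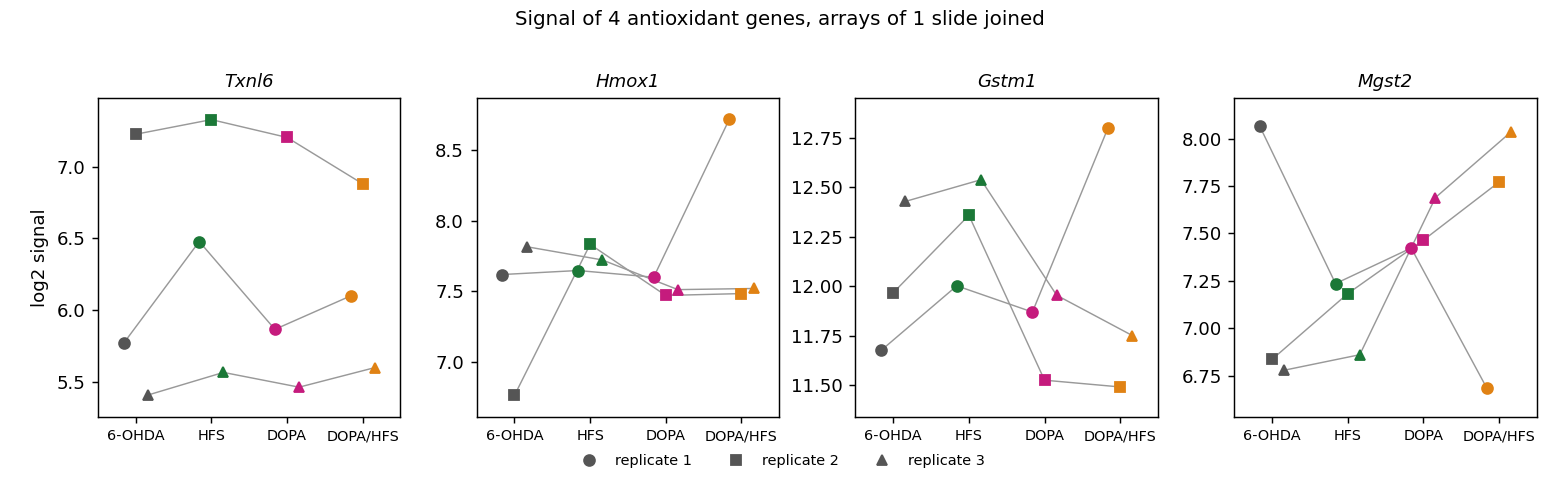
Log2 signal of 4 genes with a large spread between arrays; grey lines join the arrays of 1 slide, which share a replicate number. Txnl6 separates into 3 levels by slide, whereas DOPA/HFS replicate 1 is the highest array for Hmox1 and Gstm1 and the lowest for Mgst2.

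The 10 members that were too dim to be tested were Gclm, Gpx2, Gpx5, Gpx6, Gsta2, Gstm2, Gstm4, Gstm6, Txndc3 and Txndc8. Gclm, Gpx5, Gstm6, Txndc3 and Txndc8 were above background on no array, and the other 5 on 1 to 4 arrays, none of them of the 6-OHDA or DOPA groups. Over all spots, too, each stimulated array had a larger share well above background (60% to 63.2%) than any unstimulated array (50.5% to 58.9%). How many dim genes of the whole array had this pattern was not counted. Gstm2 was well above background on 2 HFS and 2 DOPA/HFS arrays. Its DOPA/HFS arrays overlapped with the 6-OHDA arrays, and replicate 2 was the highest, at 6.04.

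Of a list of 47 further genes of glutathione and redox metabolism, 39 were tested and 0 were called in limma. At an unadjusted p under 0.05 HFS had 0 of them (against 2.35% of all genes), DOPA 2 (5.13%, against 2.6%) and DOPA/HFS 2 (5.13%, against 2.76%). Selenop, a selenium carrier, was at 4.73, 5.95 and 6.56 in DOPA. All 3 were lower than the lowest 6-OHDA array, at 6.70, and the difference was -1.12 (SE 0.42) at an unadjusted p of 0.0222. Idh1, which makes NADPH in the cytosol, was above 6-OHDA in all DOPA arrays, by 0.35 (SE 0.15). Cth, which makes cysteine from cystathionine, was 6.50, 6.08 and 6.71 in 6-OHDA, 6.67, 6.37 and 6.88 in HFS, 6.73, 7.26 and 6.85 in DOPA, and 7.43, 6.84 and 6.71 in DOPA/HFS. It differed from 6-OHDA by 0.56 (SE 0.24) in DOPA/HFS and by 0.52 (SE 0.24) in DOPA, with unadjusted limma p-values of 0.0418 and 0.058. Hagh, a glutathione-dependent thioesterase of methylglyoxal removal, was above all 6-OHDA arrays in DOPA/HFS, by 0.42 (SE 0.17).

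In HFS the lowest p of these genes were those of Cbs, which makes cystathionine, and Mafg, a partner of NRF2. Their differences were 0.34 and 0.33 (SE 0.16), with unadjusted limma p of 0.0526 and 0.0649. The Mafg arrays of HFS and 6-OHDA overlapped, and Mafg differed by 0.30 in DOPA and 0.06 in DOPA/HFS (SE 0.16). Its interaction was -0.57 (SE 0.23), at an unadjusted limma p of 0.0293. Nfe2l2, which encodes NRF2, differed from 6-OHDA by -0.30 (HFS), -0.16 (DOPA) and -0.24 (DOPA/HFS) (SE 0.26), with overlapping arrays. Over both stimulated groups, 33 of the 39 were above the unstimulated groups, with a median of 0.08, where 50.6% of all genes were above 0 and 29 of the 50 members were. The median of the members in that comparison was 0.02. Its lowest p among the 39 was that of Cbs, at 0.034 in limma before and 0.912 after adjustment. For both L-DOPA groups against the others, Srxn1 (0.43), Cth (0.43) and Selenop (-0.74) had unadjusted limma p of 0.0221, 0.0287 and 0.0313, with overlapping groups. No other gene of the 39 was under 0.05 there, where 2.74% of all genes were. After adjustment the limma p of all 3 was 0.9998. Counts of the 39 above 0 in the other comparisons are not given here.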

How the data were processed

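Each of 12 rats gave 1 array, a 1-colour Agilent rat array of dorsal striatal RNA. The deposited scanner files hold intensity values per spot that the authors extracted with Agilent Feature Extraction 9.1 (per the submitters' processing notes), background-subtracted and not normalised between arrays. A deposited log2 table of the same arrays, which the authors quantile-normalised, served as an alternative. The study's own permutation method (SAM) was not repeated.

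From the processed signal, control spots and spots marked as non-uniform outliers were left out, log2 values were quantile-normalised, and spots of a probe were averaged. A probe had to be well above background on at least 5 of 12 arrays, and the brightest probe stood for its gene name, which left 20375 genes. Limma 3.58.1 in R 4.3.3 was fitted on all 4 groups without a block, and its p-values were adjusted over all genes by Benjamini-Hochberg. The scripts were tested on simulated data. The limma p-values rest on the spread between rats within groups, pooled over the 4 groups, which includes differences between the slides. The 3 rats per group limit the precision. Exact permutation tests were two-sided and not adjusted for the number of genes.

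Members, lists and tests were chosen with earlier results of these data known. The members given array by array were the 5 with the lowest unadjusted p in each of 6 contrasts, plus Gss and Gstm5. Cat, Gpx4, Hmox1 and Nqo1, like the ranges of other members, follow a list of main enzymes, while Mgst2, Txnl6, Gstp2 and Txndc1 were named after their values were seen. Of the other pathway genes, the 4 with the lowest p in each comparison with 6-OHDA could be named, and Nfe2l2 was added after its values were seen.

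Gene names are those of the array. By accession, 47 members matched the RefSeq table, and 6 have another symbol today: Gsta3 (now Gsta1), Gstm3 (Gstm7), Gstm4 (Gstm3), Txndc1 (Tmx1), Txndc3 (Nme8) and Txnl2 (Glrx3). The alternatives were other scaling, background correction, filters, probe choice and spot removal, the slide as a block, fewer arrays, and other thresholds.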

Additional observations from a re-analysis of the deposited data

Results flagged for a closer look

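A total of 5 members that were too dim to be tested were well above background on single treated arrays, at a log2 signal over the highest 6-OHDA array, where they were not. All of these were stimulated arrays, on which more of all spots were well above background. The share of all dim genes meeting the same rule was not counted. Gpx2, a peroxidase of epithelia, was at 5.28 and 5.44 in DOPA/HFS replicates 1 and 2, against at most 3.85 in 6-OHDA. Gpx6 was at 6.94 in HFS replicate 1, against at most 3.51. HFS replicate 1 also had the highest choroid plexus signal, and HFS replicate 3, the next highest, was at 3.47 for Gpx6. The part of that tissue in the Gpx6 value was not tested. Gsta2 was at 5.19 and 5.62 in DOPA/HFS replicates 2 and 3, against at most 2.64. Gstm2 was at 5.25 in HFS replicate 3 and 6.04 in DOPA/HFS replicate 2, against at most 4.97. Gstm4 was at 4.64 in HFS replicate 2, against at most 3.69. These gaps do not measure a rise, because the 6-OHDA signals were not well above background. With 6-OHDA held no lower than the dimmest signal well above background on each array, the fold of the group means was 0.68 (Gpx2) and 0.80 (Gsta2) in DOPA/HFS. It was 0.68 (Gpx6) and 0.54 (Gstm4) in HFS, and for Gstm2 it was 0.82 in HFS and 1.03 in DOPA/HFS. Gpx2, Gpx6 and Gsta2 each have a second probe. For Gpx2 and Gpx6 it was well above background on no array, with a difference of 0.10 in DOPA/HFS for Gpx2 and -0.09 in HFS for Gpx6, and for Gsta2 on 1 array, with a difference of 0.01 in DOPA/HFS.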

How the results depend on the processing

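In every setting other than leaving out 1 array, 0 members were called in each of the 7 tests. What moved was the number with an unadjusted p under 0.05, which is small throughout, and the cause was not tested. With 75th percentile scaling it was 0 for HFS, 1 for DOPA/HFS and 2 for the F test. With normexp it was 1 each for DOPA, DOPA/HFS and the interaction. With the deposited log2 table it was 0 for HFS, 1 for DOPA, 2 for DOPA/HFS, 1 for stimulation, 1 for the interaction and 3 for the F test. With no filter it was 3 for HFS, 1 for DOPA, 1 for DOPA/HFS, 5 for L-DOPA, 2 for stimulation, 4 for the interaction and 2 for the F test. With outlier spots kept it was 0 for HFS, 3 for DOPA/HFS, 1 for the interaction and 2 for the F test, and Txnrd2 turned to 0.51 in DOPA/HFS and 0.12 for L-DOPA. With only the arrays compared it was 0 for HFS and 1 for DOPA. The mean of all probes turned Gstm5 to -0.11 in HFS and 0.043 for the interaction. With outlier spots kept, or with the deposited table, the median of all genes in DOPA/HFS shifted to -0.136 and -0.118, from -0.012. Leaving out population outliers as well, an alternative added after the data were seen, changed no count by more than 1.5 times. Same-numbered arrays correlated between -0.288 and 0.477, and 5 of 12 correlated best with their own number, so the numbers were not taken to pair the rats. With the replicate block the number was 0 for HFS, 1 for DOPA/HFS, 2 for stimulation and 2 for the F test. Leaving out each array in turn gave 0 to 2 for HFS, 1 to 3 for DOPA, 0 to 2 for DOPA/HFS, 2 to 5 for L-DOPA, 0 to 2 for stimulation, 0 to 1 for the interaction and 1 to 3 for the F test. The members called stayed at 0, except 0 to 1 for L-DOPA, where Gss was called without DOPA/HFS replicate 1, as were 28 of all 20375 genes against 1 with all arrays. The number for HFS was 0 without any 1 of the HFS arrays, 6-OHDA replicate 1, DOPA replicate 1, or DOPA/HFS replicates 1 or 3, and 2 without 6-OHDA replicate 3. Without 6-OHDA replicate 1 or DOPA/HFS replicate 1 the number for L-DOPA was 5. The difference of Gss in DOPA ran from 0.56 to 0.69 over all settings.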
